A study of Mus musculus with 4 samples.

Results

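The genes described here encode heat shock proteins and protein-folding chaperones. They were taken as all gene symbols that start with Hspa, Hspb, Hspd, Hspe, Hsph, Hsp90, Dnaja, Dnajb or Dnajc, or with Cct or Pdia followed by a digit. The rule found 88 genes among 23259 with a value. By the compartment in which each protein is known to work, 53 were placed in the cytosol and nucleus, 19 in the endoplasmic reticulum and 9 in the mitochondrion, and 7 were left unassigned. RNA came from macrophages grown from the bone marrow of C57BL/6 mice 7 weeks old. All 4 libraries had IL-4, a cytokine of alternative activation, for 24 h, and no library without IL-4 was analysed here. The comparison was between 2 libraries labelled wild type and 2 labelled Sema6D-/-, that is, lacking the membrane semaphorin Sema6D; the labels name no promoter or Cre for the deletion. Titles start with the letter K for the former and W for the latter, and the level of Sema6d, given below, does not settle which library is which. The labels may therefore be exchanged; every direction given is that of the genotype labels and would turn if they are.

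Chaperones bind unfolded or newly made proteins and keep them from clumping until they fold. Proteins of the Hsp70 family (Hspa genes) hold short stretches of a client in a cycle driven by ATP. J-domain proteins (Dnaja, Dnajb and Dnajc genes) bring clients to Hsp70 and start the cycle, and nucleotide exchange factors such as Hsph1 end it. Hsp90 proteins act later on clients such as kinases and receptors, and the CCT ring folds actin and tubulin in a closed chamber. In the endoplasmic reticulum, Hspa5, Hsp90b1 and the disulfide isomerases (Pdia genes) fold secreted and membrane proteins, of which macrophages make many. Heat shock factor 1 induces the cytosolic set through heat shock elements, and the unfolded protein response induces the reticulum set through a promoter element of its own.

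Promoter stretches of the reticulum set are shown because they carry the element through which that response acts, and the expression of their genes is compared below. Of the 88 genes, 73 had a promoter window, from 250 bases before to 50 after a start site, in the RefSeq table of GRCm38.p6. The element, searched on both strands as CCAAT, 9 bases of any kind and CCACG, was found in 4 of the 92 windows of these genes (4.35%), against 0.119% of all 32851 windows. The 4 genes were Hspa5, Hsp90b1, Pdia6 and Dnajc3, all from the 17 reticulum genes that had a window. Capitals mark the fixed bases of each match, and Hsp90b1 holds 2 matches, the second on the other strand. The stretches lie, in the order shown, at chr2:34771985-34772074 (plus strand), chr10:86705524-86705664 (minus), chr12:17266459-17266538 (plus) and chr14:118937802-118937881 (plus).
Hspa5: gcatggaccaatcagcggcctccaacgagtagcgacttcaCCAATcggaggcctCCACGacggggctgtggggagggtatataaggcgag
Hsp90b1: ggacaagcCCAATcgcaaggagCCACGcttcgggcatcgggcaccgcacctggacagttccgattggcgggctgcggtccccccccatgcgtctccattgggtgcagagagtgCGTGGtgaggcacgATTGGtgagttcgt
Pdia6: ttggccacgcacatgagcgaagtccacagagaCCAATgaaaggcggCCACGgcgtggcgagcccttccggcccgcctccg
Dnajc3: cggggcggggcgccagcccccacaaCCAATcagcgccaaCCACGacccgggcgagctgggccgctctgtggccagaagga

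A heat shock element of 3 strict units, searched on both strands as GAA, TTC and GAA with 2 bases of any kind between units, was found in 6 of the 92 windows (6.52%), against 0.603% of all windows. These windows belong to 4 genes, Hspd1, Hspe1, Dnajb6 and Hsph1. Hspd1 and Hspe1 are transcribed away from each other and share 1 stretch with 2 overlapping matches, at chr1:55088055-55088082. Of the genes that results below turn on, Hspa8, Hspa9, Hsp90aa1 and Hsp90ab1 had no window and were not searched. The heat-inducible Hspa1a, Hspa1b, Hspb1 and Dnajb1 had windows, and no match to this strict form was found in them. Hsph1 has its match just after the start sites of the windows that hold it, at chr5:149636283-149636304 on the minus strand. These sites lie inside the gene, whose outermost start on that strand is at 149636498. The Dnajb6 stretch lies at chr5:29735843-29735872 on the plus strand.
Hspe1: tccgTTCtaGAAccTTCcgGAAggcccc
Hsph1: cagaTTCtgGAAagTTCtcctc
Dnajb6: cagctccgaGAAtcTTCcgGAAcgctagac
The core of the amino acid response element, TGATGNAA on either strand, was found in 1 of the 92 windows (1.09%), that of Hspa14, against 3.97% of all windows. No gene held more than 1 of the 3 motifs, so matches to different motifs did not overlap. A match describes these letters only and does not show that a factor binds there.

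Values are FPKM, fragments per kilobase of transcript, scaled to the number of fragments in the library, which can be compared between genes because they are divided by length. Depth, read from the steps between low values, was estimated at about 8100000 to 9000000 fragments a library. Sema6d itself, at 0.166 and 0.389 FPKM (wild type) and 0.106 and 0.315 (Sema6D-/-), did not separate the labels; reads from outside a deleted part could not do so. Of 6 macrophage markers, Emr1 was higher under Sema6D-/- (log2 difference 0.50, adjusted p = 0.0056), Itgam (-0.47, 0.00963) and Lyz2 (-0.37, 0.017) were lower, and Csf1r, Cd68 and Mrc1 did not pass; their summed levels were 5635 to 5912 FPKM against 5359 to 5371, and none was at 0. Of 5 dendritic cell markers, 2 were tested: Itgax was lower (-0.37, adjusted p = 0.011) and Ccr7 did not pass. The sums were 404 to 410 FPKM against 306 to 321, but Itgax alone gave 402 and 407 against 304 and 320. Flt3, Zbtb46, Ccr7 and Xcr1 reached at most 1.37 FPKM in a library, so the sums follow Itgax only. B cell markers summed to at most 1.14 FPKM in a library, and T cell markers to at most 1.26. Of 11 neutrophil markers, 6 were higher and 1 lower under Sema6D-/-, and none of the 11 was at 0 in all libraries. Those higher were S100a8, S100a9, Ngp, Lcn2, Ltf and Mpo. Csf3r was lower (log2 difference -0.68, limma adjusted p = 0.00756), and Camp, Elane, Retnlg and Mmp8 did not pass. Summed levels were 254 to 264 FPKM against 660 to 802, mostly from S100a8 and S100a9. S100a8 was at 72.2 and 79.1 against 295 and 232 FPKM, and S100a9 at 98.8 and 89.6 against 343 and 289. The part of these cell type markers in the differences below was not tested. In bulk RNA, fewer cells of a type and less RNA per cell cannot be told apart.

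Expression was concentrated in a few genes. The 88 genes together made up 0.718% and 0.694% of the summed FPKM under wild type and 0.666% and 0.694% under Sema6D-/-. The genotype labels did not separate this share of summed FPKM, but only by a narrow margin. It was 0.69387% in wild type replicate 2 and 0.69396% in Sema6D-/- replicate 2. Hsp90ab1, the constitutive cytosolic Hsp90, had the highest mean over the 4 libraries, at 556 FPKM. It was followed by the reticulum chaperones Hspa5 (348), Hsp90b1 (303) and Pdia3 (266) and by Hspa8 (159), the constitutive cytosolic Hsp70. Of the 88, 66 had a mean of at least 1 FPKM and were tested, and 22 did not. The untested genes were listed at 0 in all 4 libraries in 7 cases, and at 0 in some libraries in 9. Several are best known from testis or muscle, among them Hspa1l, Hspb3, Hspb7 and Dnajb8. The highest mean of the untested genes was 0.902 FPKM, for Pdia5, at 0.691 and 0.737 against 1.65 and 0.530.

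Most chaperone genes did not pass the threshold, which 5 of the 66 tested did. Dnajc15, Hspa9 and Dnajb4 were higher in the libraries labelled Sema6D-/-, and Hsph1 and Hspa8 were lower. The share called was 7.58%, against 9.72% of all 10115 genes tested (4.8% higher and 4.91% lower), a share near the background. The libraries did not overlap between the labels for 34 of the 66 (51.5%), against 56.2% of all genes tested. Both counts include Dnajb13 and Hspa2, which reached the filter through their Sema6D-/- libraries alone, so the 34 is inflated by the filter. The median difference in log2(FPKM + 1) was 0.0060 over the tested chaperones and 0.0029 over all genes tested. The 95% interval of the difference lay within 0.5 on the log2 scale, a factor of 1.41, on both sides of 0 for 54 of the 66. Without 1 library, the log2 difference ran from 0.70 to 0.90 for Dnajc15, 0.28 to 0.29 for Hspa9 and 0.36 to 0.56 for Dnajb4. It ran from -0.44 to -0.40 for Hsph1 and from -0.25 to -0.18 for Hspa8. The calls moved: of the 5, Dnajc15 alone kept its call each time, and Hspa8 lost it each time. Hspb11, not among the 5, passed as lower without Sema6D-/- replicate 2.

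**Figure D1:**
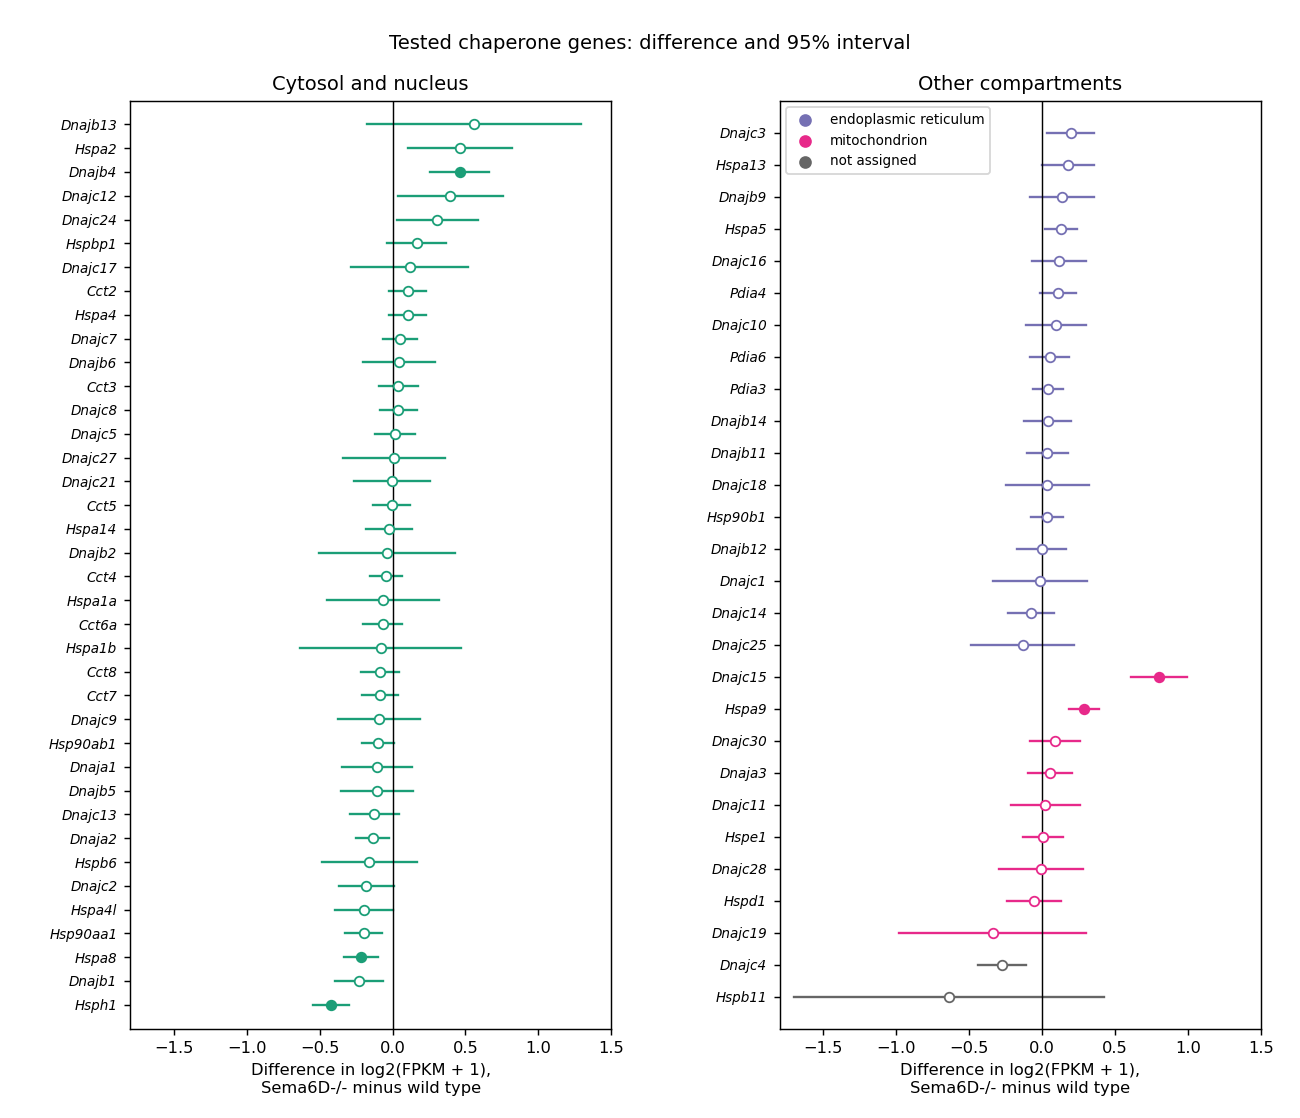
Difference in log2(FPKM + 1), libraries labelled Sema6D-/- minus wild type, for each of the 66 tested genes, with its 95% interval from limma. Filled points passed an adjusted p of 0.05, which holds for 5 genes; cytosolic genes are in the left panel and the other compartments in the right, and most intervals cross 0.

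**Figure D2:**
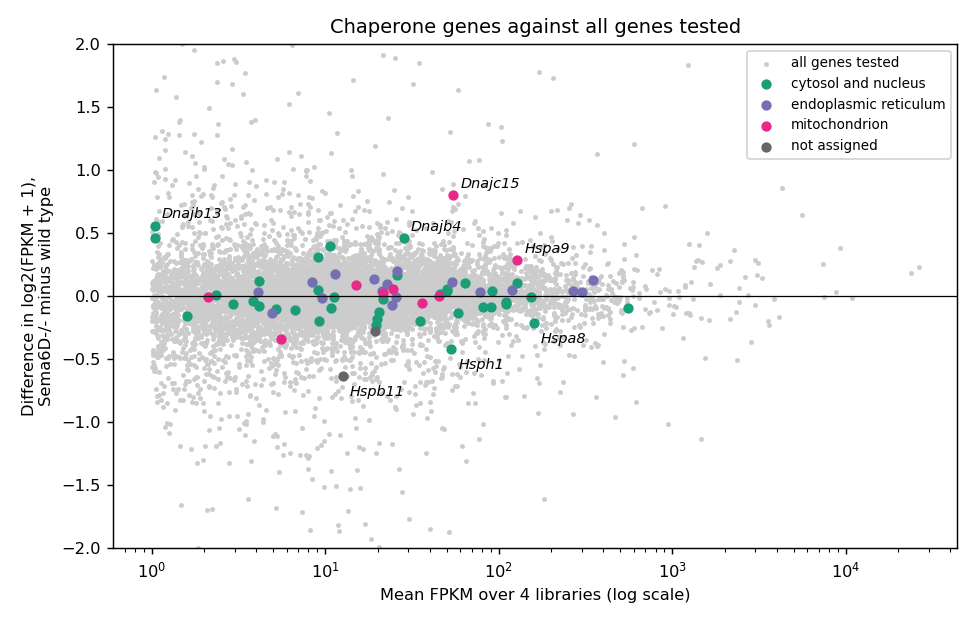
Mean FPKM over the 4 libraries (log scale) against the difference in log2(FPKM + 1), Sema6D-/- minus wild type, for the tested chaperone genes by compartment (coloured) and all 10115 genes tested (grey); 73 of the grey genes lie beyond the axis limit of 2. The chaperones lie in the middle of the cloud, with Dnajc15 the highest and Hspb11 the lowest of the 66.

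The largest difference that passed among these genes was in a mitochondrial one. Dnajc15 encodes a J-domain protein of the inner mitochondrial membrane, also called MCJ, that is known to restrain complex I of the respiratory chain. It lies on chromosome 14 from 77826217 to 77874917 in GRCm38. Its level was 39.3 and 39.8 FPKM under wild type and 64.8 and 74.8 under Sema6D-/-. Both libraries of one label thus lay well above both of the other, although the 2 Sema6D-/- libraries also differed from each other. The mean rose from 39.6 ± 0.32 to 69.8 ± 7.1 FPKM (SD, n = 2 each), a factor of 1.76, with a log2 difference of 0.80 ± 0.08 (SE) and a limma adjusted p of 0.00556. It passed under each of the 13 alternatives tried, with adjusted p from 0.00157 to 0.0313. None of the 50-base words of its transcript occurs in another annotated gene.

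Hspa9, also called mortalin, is the Hsp70 of the mitochondrial matrix and drives protein import and folding there. It lies on chromosome 18 from 34937414 to 34954351. Its level was 115.0 and 114.7 FPKM under wild type and 139.9 and 140.4 under Sema6D-/-, 2 tight pairs that did not overlap. The mean rose from 114.8 ± 0.19 to 140.2 ± 0.36 FPKM (SD, n = 2 each), a factor of 1.22, with a log2 difference of 0.29 ± 0.04 (SE) and a limma adjusted p of 0.0162. The difference stayed between 0.28 and 0.29 with 1 library left out, but the call was lost with eBayes without trend (adjusted p = 0.0691) and without wild type replicate 2 (0.0504), Sema6D-/- replicate 1 (0.101) or Sema6D-/- replicate 2 (0.0962).

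No other mitochondrial chaperone passed. Of 9 tested, 2 were higher and 0 lower (22.2% called, on few genes, against 9.72% of all genes tested), with 0 lower by limma at an unadjusted p under 0.05 as well, and the median difference was 0.02. Hspd1 (Hsp60) and Hspe1 (Hsp10) form the folding chamber of the matrix. Hspd1 was at 38.97 and 35.04 FPKM against 36.9 and 34.2, and Hspe1 at 46.0 and 44.8 against 44.0 and 47.0. In both genes the groups overlapped. The log2 difference was -0.06 for Hspd1 (95% interval -0.24 to 0.13) and 0.0032 for Hspe1 (-0.13 to 0.14). Of the 50-base words in each transcript, 44.8% also occur in other genes, mostly pseudogenes, so these 2 levels depend on how shared reads were treated. Dnaja3 (Tid1), which serves Hspa9 as a J-domain partner, was at 24.6 and 23.8 against 25.96 and 24.3, again with overlap. Dnajc19, a J-domain protein of the import motor with the lowest difference in the compartment, was at 7.12 and 5.36 against 3.44 and 6.29 FPKM. Its groups overlapped, and its difference of -0.34 (-0.98 to 0.30) became 0.02 without Sema6D-/- replicate 1.

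**Figure D3:**
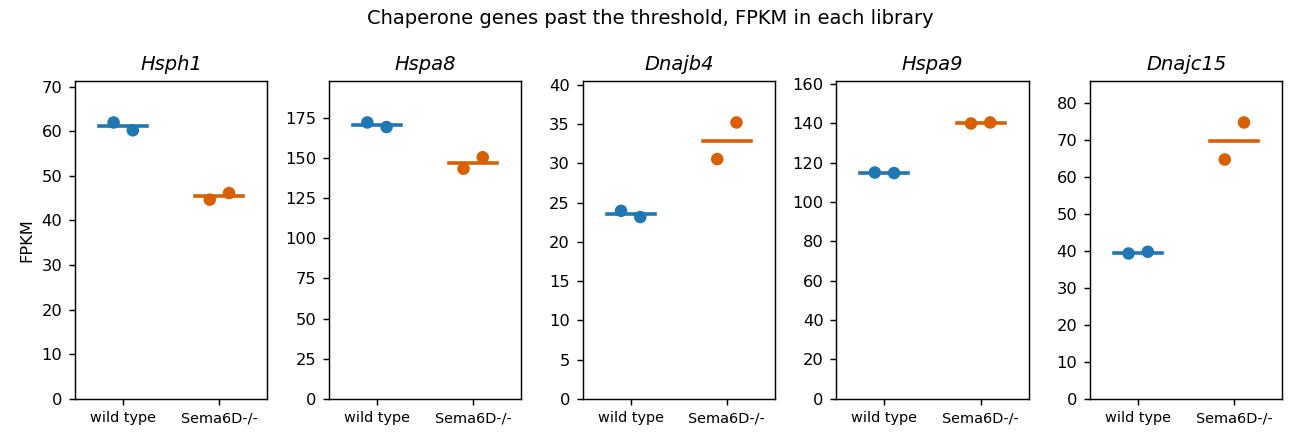
FPKM of the 5 chaperone genes that passed the threshold in each of the 4 libraries (points), with the mean of each label (bars); every axis starts at 0. The groups do not overlap in any of the 5, and the gap is widest in Dnajc15, at 39.3 and 39.8 against 64.8 and 74.8 FPKM.

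In the cytosol and nucleus, 3 of the 38 genes tested passed, in both directions (7.89%, against 9.72% of all genes tested). Hsph1, or Hsp110, frees Hsp70 from its spent nucleotide and helps it to dissolve aggregates; it lies on chromosome 5 from 149616843 to 149636498. Its level was 62.0 and 60.2 FPKM under wild type and 44.7 and 46.1 under Sema6D-/-, without overlap. The mean fell from 61.1 ± 1.2 to 45.4 ± 1.0 FPKM (SD, n = 2 each), a factor of 1.35, with a log2 difference of -0.42 ± 0.05 (SE) and a limma adjusted p of 0.00944. The call was lost without Sema6D-/- replicate 1, with a difference of -0.40 and an adjusted p of 0.0662. None of its 50-base words occurs in another gene.

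Hspa8, or Hsc70, folds new proteins, uncoats clathrin vesicles and carries clients to chaperone-mediated autophagy; it lies on chromosome 9 from 40801276 to 40805202. Its level was 172.2 and 169.4 FPKM against 143.4 and 150.6, without overlap. The mean fell by 14.0%, with a log2 difference of -0.22 ± 0.05 (SE) and a limma adjusted p of 0.0468, just under the threshold. The call was lost without a filter (adjusted p = 0.0819) and with eBayes without trend (0.136). It was also lost without any 1 library, with adjusted p of 0.124 (without wild type replicate 1), 0.101 (wild type replicate 2), 0.227 (Sema6D-/- replicate 1) and 0.119 (Sema6D-/- replicate 2). Of its 50-base words, 74.8% occur in other genes, 12 of 13 of them pseudogenes, so its level is uncertain.

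Dnajb4, a J-domain partner of cytosolic Hsp70, went the other way. It lies on chromosome 3 from 152181580 to 152210432, and its level was 24.0 and 23.2 FPKM under wild type and 30.6 and 35.2 under Sema6D-/-, without overlap. The mean rose from 23.6 ± 0.56 to 32.9 ± 3.3 FPKM (SD, n = 2 each), a factor of 1.40, with a log2 difference of 0.46 ± 0.08 (SE) and a limma adjusted p of 0.0276. The call was lost without a filter (adjusted p = 0.0766), with eBayes without trend (0.0661) and without wild type replicate 1 (0.0578), wild type replicate 2 (0.0806) or Sema6D-/- replicate 2 (0.0972).

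Other cytosolic Hsp40, Hsp90 and Hsp70-type genes did not pass. Dnajb1, or Hsp40, the main heat-induced J-domain protein, was at 20.4 and 21.9 FPKM against 17.5 and 18.2, a log2 difference of -0.23 (95% interval -0.39 to -0.07, adjusted p = 0.096). Hsp90aa1, the inducible cytosolic Hsp90, was at 36.8 and 38.3 against 32.4 and 32.8, a difference of -0.20 (-0.32 to -0.07, adjusted p = 0.077). Neither overlapped between the labels, as held for 56.2% of all genes tested. Of the 50-base words of Hsp90aa1, 58.5% occur in other genes. Hsp90ab1, at 14.7 to 16.5 times the FPKM of Hsp90aa1, was at 586 and 564 against 535 and 538, a difference of -0.10 (-0.21 to 0.01). Dnaja2, a J-domain partner of Hspa8, was at 60.2 and 61.7 against 55.4 and 55.3, a difference of -0.14 (-0.25 to -0.02, adjusted p = 0.141). Hspa4, or Apg-2, which like Hsph1 is an exchange factor of Hsp70, was at 61.3 and 60.9 against 63.9 and 67.5, a difference of 0.10 (-0.02 to 0.23, adjusted p = 0.274). Its sign was thus the opposite of that of Hsph1, at a like level under wild type.

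Hspa1a, Hspa1b and Hspb1 are known as heat-inducible genes. Hspa1a was at 2.64 and 3.42 FPKM under wild type and 2.51 and 3.20 under Sema6D-/-, and Hspa1b at 3.21 and 5.44 against 3.51 and 4.36. The groups overlapped in both, and the intervals of the log2 difference were wide, from -0.45 to 0.32 and from -0.64 to 0.47. The 2 genes are near copies of each other, with 58.8% of the 50-base words of Hspa1a found in Hspa1b, and 66.3% and 62.3% of the words of Hspa1a and Hspa1b occur in some other gene. Their levels are therefore uncertain. Hspb1, or Hsp27, an inducible small heat shock protein, was listed at 0 in 3 libraries and at 0.153 FPKM in Sema6D-/- replicate 2. Of its words, 51.6% occur in other genes, and a listed 0 can be a failed estimate, so its level is uncertain too. Dnaja1, a J-domain partner of Hspa8, was at 5.56 and 5.24 against 4.67 and 5.25, with overlap and a difference of -0.11 (-0.35 to 0.14). Here 28.8% of the 50-base words occur in other genes.

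The CCT ring varied little. CCT is built from different but related subunits, of which Cct2, Cct3, Cct4, Cct5, Cct6a, Cct7 and Cct8 were tested. Their levels ran from 78.0 FPKM (Cct7, Sema6D-/- replicate 2) to 158.9 (Cct5, Sema6D-/- replicate 1). None of the 7 passed by limma, and none had an unadjusted p under 0.05. Among all genes tested, 9.72% passed, and 2535 of 10115 had an unadjusted p under 0.05. All 7 intervals lay within 0.25 on the log2 scale, a factor of 1.19. Cct2 was highest in difference, at 127.8 and 118.9 against 131.2 and 133.7 FPKM (0.10, interval -0.03 to 0.23). Cct7 was lowest, at 86.3 and 81.5 against 79.8 and 78.0 (-0.09, -0.21 to 0.04). Cct4, at 113.1 and 109.7 against 108.2 and 107.9, and Cct8, at 95.8 and 89.5 against 88.1 and 86.6, also had both Sema6D-/- libraries below both of the other label.
Cct3 (93.4 and 87.4 against 94.5 and 91.5), Cct5 (154.1 and 153.7 against 158.9 and 148.1) and Cct6a (114.1 and 111.9 against 103.9 and 111.9) overlapped between the labels. The testis form Cct6b was listed at 0 under wild type and at 0.070 and 0.068 under Sema6D-/-. Summed over the ring, the 4 libraries gave 785 and 753 FPKM against 765 and 758. Tcp1, the remaining subunit, whose symbol the rule does not catch, had means of 98.34 and 99.01 FPKM.

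Over all 38 cytosolic and nuclear genes tested, 1 was higher and 2 lower (7.89% called, against 9.72% of all genes tested). The median difference was -0.04. The libraries did not overlap for 22, of which 9 had both Sema6D-/- libraries above and 13 below the other label; among all genes tested, the shares were 28.8% above and 27.4% below. Dnajb13 and Hspa2 reached the filter through their Sema6D-/- libraries alone, with wild type means under 1 FPKM, so their differences are given as values only. Both are counted in the 38, in the median and in the 9 above, so that count is inflated by the filter. Dnajb13 was named by rule as the compartment's highest difference, a rank that depends on the filter and is not read as a result. This J-domain protein of sperm flagella and cilia was at 0.215 and 1.157 FPKM against 1.53 and 1.248. The first of these rests on about 5 fragments and the others on about 28 to 34, and the interval of its difference reached from -0.17 to 1.29. Dnajc12 and Dnajc24 had differences above 0.3 that did not pass, and with Hspa2 they are named here after their values were seen. Hspa2, an Hsp70 best known from the testis, was at 0.652 and 0.792 against 1.40 and 1.35 FPKM. Dnajc12, a co-chaperone of aromatic amino acid hydroxylases, was at 7.97 and 10.1 against 13.5 and 10.9, and Dnajc24, which acts in diphthamide synthesis, at 8.53 and 7.55 against 9.29 and 11.2. For Dnajc12 and Dnajc24 both Sema6D-/- libraries were above the other label (adjusted p = 0.165 for each).

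No chaperone of the endoplasmic reticulum passed, and most differences were small and above 0. Of 17 tested, 0 were higher and 0 lower by limma, and 2 had an unadjusted p under 0.05. Among all genes tested, 9.72% passed, and 2535 of 10115 had an unadjusted p under 0.05. The difference was above 0 for 13 and below 0 for 4, which became 11 and 6 after quantile normalization, with a median of 0.04 under both. The libraries did not overlap for 8 (47.1%, against 56.2% of all genes tested), with Sema6D-/- above in 7 and below in 1. Over all genes tested, the difference was above 0 for 5149 of 10115. All 17 intervals lay within 0.5 on the log2 scale, and 9 within 0.25.

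The 2 most abundant genes of the compartment are an Hsp70 and an Hsp90. Hspa5, or BiP, the Hsp70 of this compartment and the sensor that holds the stress receptors inactive, was at 331 and 333 FPKM against 356 and 371. Both Sema6D-/- libraries were above both of the other label, the means by 9.51%, with a log2 difference of 0.13 (95% interval 0.02 to 0.24, adjusted p = 0.141). Hsp90b1, or GRP94, which folds Toll-like receptors and integrins, was at 295 and 305 against 303 and 310, a difference of 0.03 (-0.08 to 0.14) that was -0.02 after quantile normalization. Its groups overlapped.

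Several J-domain proteins work with Hspa5. Dnajc3, or P58IPK, which binds clients and restrains the kinase PERK, had the highest difference of the compartment, at 23.1 and 24.8 against 28.3 and 26.8 FPKM without overlap (0.20, 0.04 to 0.35, adjusted p = 0.134). Dnajb9, or ERdj4, which acts in the disposal of misfolded proteins, was at 16.6 and 19.5 against 20.2 and 19.7, again without overlap (0.14, -0.08 to 0.36). Hspa13, an atypical Hsp70 of this compartment, was at 10.8 and 10.5 against 12.6 and 11.7 (0.18, -0.0021 to 0.36). Dnajb11, or ERdj3, was at 78.5 and 76.1 against 76.1 and 82.4, and Dnajc10, or ERdj5, a reductase of wrong disulfides, at 22.8 and 20.7 against 21.99 and 24.7, both with overlap. Dnajc25 had the lowest difference, at 4.60 and 5.77 against 4.14 and 5.11 (-0.13, -0.49 to 0.22).

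Among the disulfide isomerases, Pdia3, or ERp57, which works on glycoproteins and in the loading of MHC class I, was at 262.4 and 262.9 FPKM against 268.1 and 272.1. The groups did not overlap, and the difference was 0.04 (-0.06 to 0.14), which turned to -0.03 after quantile normalization. Pdia4 was at 53.0 and 50.3 against 56.2 and 55.4, without overlap (0.11, -0.02 to 0.23), and Pdia6 at 114.2 and 120.0 against 117.7 and 124.9, with overlap (0.05, -0.08 to 0.18). The 4 genes whose promoter stretches are printed above thus had log2 differences of 0.13 (Hspa5), 0.03 (Hsp90b1), 0.05 (Pdia6) and 0.20 (Dnajc3), and none of them passed. Summed by library, the reticulum genes gave 1306 and 1322 FPKM under wild type and 1359 and 1398 under Sema6D-/-. The mitochondrial genes gave 310 and 300.3 against 353 and 368, and the cytosolic and nuclear ones 2133 and 2078 against 2020 and 2032. Such sums follow their most abundant genes. The mitochondrial one holds the called Hspa9 (means of 115 and 140 FPKM) and Dnajc15 (39.6 and 69.8). The cytosolic one holds Hsp90ab1 (575 and 537), Hspa8 (171 and 147) and Hsph1 (61.1 and 45.4). By gene, the difference was above 0 for 6 and below 0 for 3 mitochondrial genes tested (median 0.02). It was above 0 for 15 and below 0 for 23 cytosolic ones (median -0.04). The 15 include Dnajb13 and Hspa2, which reached the filter through their Sema6D-/- libraries alone. Whether compartments differ in their response was not tested.

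Of the unassigned genes 2 were tested, and neither passed. Hspb11, or IFT25, a part of the transport trains of cilia despite its name, was at 14.3 and 15.4 FPKM under wild type and at 5.33 and 15.4 under Sema6D-/-. A single library, Sema6D-/- replicate 1, thus stood low, on about 90 fragments against 268 to 288 in the others. The difference of -0.64 (95% interval -1.70 to 0.42) was 0.05 without that library and -1.33 without Sema6D-/- replicate 2, where it passed (adjusted p = 0.0112). Dnajc4 was at 22.1 and 20.4 against 17.6 and 17.1 FPKM, without overlap (-0.28, -0.44 to -0.11, adjusted p = 0.063).

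Partners of the chaperones, listed with earlier results of these data known, were called about as often as genes in general. Among 23 tested heat shock factors and cytosolic co-chaperones, 2 were higher and 0 lower (8.7% called, against 9.72% of all genes tested). Ahsa1, which speeds the ATPase of Hsp90, was at 200.1 and 199.99 against 233.9 and 236.4 FPKM, and Bag3, a nucleotide exchange factor that links Hsp70 to autophagy, at 36.3 and 38.5 against 49.0 and 45.2. Both rose without overlap (log2 differences of 0.23 and 0.33, adjusted p = 0.027 and 0.0362), but neither passed once any single library was left out (adjusted p from 0.0705 to 0.142 for Ahsa1 and from 0.0624 to 0.179 for Bag3). Hsf1 itself had means of 14.9 and 15.6 FPKM (0.07, adjusted p = 0.694). Fkbp5, an Hsp90 co-chaperone induced by glucocorticoids, had means of 7.47 and 5.58 (-0.36, adjusted p = 0.0516, but 0.046 with a pseudocount of 0.1 and 0.0389 with robust estimation), and Stub1, a ubiquitin ligase for chaperone clients, 37.5 and 42.8 (adjusted p = 0.148).

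In the list of the unfolded protein response and other reticulum folding factors, 2 of 24 tested were higher and 0 lower. That is 8.33% called, against 9.72% of all genes tested. By limma, 5 of the 24 had an unadjusted p under 0.05, against 2535 of all 10115 genes tested. Atf4, the transcription factor of the integrated stress response, was at 145.9 and 140.8 against 208.2 and 197.2 FPKM, and its target Ddit3 (CHOP) at 77.8 and 77.7 against 94.9 and 108.7. Both rose without overlap, by 0.50 and 0.38 on the log2 scale (adjusted p = 0.00599 and 0.0342). Ddit3 lost its call without wild type replicate 1 (adjusted p = 0.0809), wild type replicate 2 (0.0886) or Sema6D-/- replicate 2 (0.0991). The difference was above 0 for 21 of the 24 and below 0 for 3 (19 and 5 after quantile normalization), with a median of 0.11, against 5149 of 10115 above 0 and a median of 0.0029 over all genes tested. Both Sema6D-/- libraries were above the other label for 16 and below for 0, against 28.8% and 27.4% of all genes tested. Atf6, a stress sensor, had means of 18.7 and 23.4 FPKM (adjusted p = 0.0515, but 0.0482 with a pseudocount of 0.1, 0.0424 with a mean of at least 5 FPKM and 0.0368 with robust estimation), and the secreted survival factor Manf 29.4 and 34.0 (adjusted p = 0.0673). The 2 libraries with these differences also held the larger sums of neutrophil markers given above, mostly S100a8 and S100a9, although Csf3r was lower. The part of these markers here was not tested.

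The mitochondrial list holds co-chaperones and proteases and the transcription factor Atf5, and of its 12 genes 1 was higher and 0 lower (8.33%, against 9.72% of all genes tested). The gene called was Atf5; none of the co-chaperones and proteases passed, and of these Trap1 alone had an unadjusted p under 0.05 by limma. Atf5, which drives the mitochondrial unfolded protein response, was at 47.4 and 51.0 against 108.3 and 102.2 FPKM, a log2 difference of 1.08 (adjusted p = 0.0014), without overlap. Atf5 and Atf4 kept their calls under all 13 alternatives. Trap1, the mitochondrial Hsp90, had means of 41.4 and 36.8 FPKM (-0.17, adjusted p = 0.103), and the proteases Lonp1 and Afg3l2 had 23.6 and 21.8 and 24.9 and 26.9 (adjusted p = 0.425 and 0.305). The differences of the list lay above 0 for 4 genes and below for 8.

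**Figure D4:**
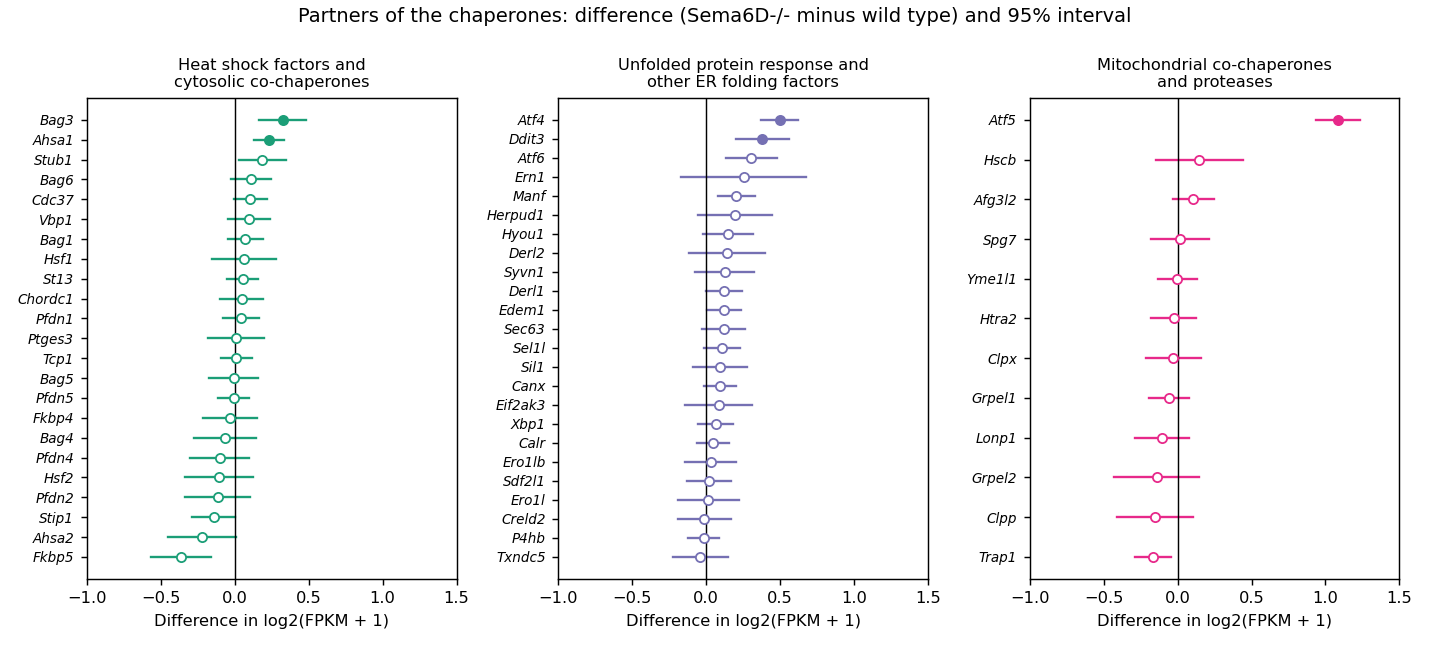
Difference in log2(FPKM + 1), Sema6D-/- minus wild type, with its 95% interval from limma, for the partners of the chaperones in 3 lists: cytosolic co-chaperones and heat shock factors, reticulum factors, and mitochondrial co-chaperones and proteases with Atf5. Filled points passed the threshold (Bag3 and Ahsa1; Atf4 and Ddit3; Atf5), and 21 of the 24 reticulum factors lie above 0.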

How the data were processed

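The authors deposited 1 list of FPKM values per library, and per the submitters' processing notes these come from TopHat2 2.0.13, Bowtie2 2.2.3, SAMtools 0.1.19 and Cuffnorm 2.2.1 on mm10, with libraries from a strand-specific kit per the labels' protocols. Which annotation was used, and how multiply mapped reads were handled, is not given in the sources used here. Of 23284 symbols, 25 had no value.

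The 2 labels were compared by limma 3.58.1 under R 4.3.3, two-sided, using log2(FPKM + 1) and eBayes with a trend on level. The 10115 genes whose mean reached 1 FPKM were tested, with Benjamini-Hochberg adjustment over all of them and a threshold of 0.05. On simulated data, the test recovered 50% of genes changed by 0.5 on the log2 scale, 88% at 1, 100% at 2 and 98% at 3. The simulation gave 174 calls, of which 6 were false, against 983 calls in the data. Changes of 0.5 or less can thus be missed. Groups follow the genotype labels. Nothing says that libraries came from separate mice, so the spread behind each p-value is that between these samples and may be technical. Differences on this scale understate changes of low genes, and a listed 0 can be a failed estimate: Gapdh was listed at 0 in 3 libraries.

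Depth was estimated from the steps between low values: for 87.6% to 91.8% of genes under 0.1 FPKM in a pair of libraries, the ratio of the pair was one of small whole numbers (tolerance 0.02, log2). Fragment numbers use GENCODE exon lengths and are rough. Shared 50-base words were counted in GENCODE transcripts, with Python 3.11.15.

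Members, compartments, lists and motifs were chosen with earlier results of these data known. Named by rule were all called members, the CCT genes, the main chaperones of each compartment, each compartment's highest and lowest difference and up to 4 genes per list by smallest p, with Hsf1 and Sema6d. Tcp1, Dnaja2, Dnaja3, Hspa4, Hspa13, Hspa1l, Hspb3, Hspb7, Dnajb8, Hspa2, Dnajc12, Dnajc24, Pdia5, Dnajb6 and Hspa14 were named after their values were seen. Alternatives were other pseudocounts, filters, scalings and variance estimates, a replicate block, and leaving out each library.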

Additional observations from a re-analysis of the deposited data

How the results depend on the processing

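Of the 5 called genes, 47 of 65 alternative fits kept the call, 18 lost it, and none turned a direction. The count of 3 higher genes stayed at 2 or 3 under every alternative that kept all libraries, and ran from 1 to 2 with 1 library left out. The count of 2 lower genes was 1 without a filter, 1 with eBayes without trend and 1 with the replicate block, and ran from 0 to 2 with 1 library left out. Fewer libraries weaken the test. Of 370 fits of the 29 other named chaperone genes, 2 reached the threshold, for Hspb11 without Sema6D-/- replicate 2 and for Dnajc4 with robust estimation (adjusted p = 0.0485). Of the named partners, Atf6 and Fkbp5 also reached it in some fits, with the values given beside them. The replicate block, which pairs libraries by the number in their titles, gave 2 higher and 1 lower gene, with Dnajb4 and Hspa8 losing their calls. Same-numbered libraries did not deviate together (r = -0.02 over genes), so the number is no evidence of pairing. The median difference of reticulum genes was 0.09 without Sema6D-/- replicate 1, and that of mitochondrial genes was -0.02 without wild type replicate 2.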
